A study of Mus musculus with 179 samples.

Results

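The circadian clock genes Per1, Per2, Per3, Dbp, Nr1d1, Nr1d2, Arntl, Clock, Cry1 and Cry2 were followed through every RNA library of a mouse brain stress series. They were chosen by name, by what is known of the clock and not by a measured value, and were matched by symbol in the table that gives symbols and by Ensembl identifier in the other tables. They are 10 of the 42887 genes listed in at least 1 of the 3 expression tables. All 10 are in the table of the male ventral tegmental area (VTA) and in the table of the other libraries. The table of the male nucleus accumbens (NAc) used here holds 5 of them (Per1, Nr1d1, Nr1d2, Arntl and Cry2), and the other 5 were not analysed in that region. All 10 passed the filter on low values wherever they were listed.

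The series asks how early life stress (ELS) alters the later response of the brain to a second stress in adulthood, in C57BL/6 males (VTA) and C57Bl6/j males and females (other regions), and holds 163 RNA libraries. In males the groups were ELS followed by adult social defeat, standard rearing followed by defeat, ELS with no adult stress (ELS control) and standard rearing with no adult stress (standard control), in VTA, prefrontal cortex (PFC), hippocampus (HIP) and NAc. ELS was given in the window labelled P10-20, in male NAc also in a separate set of mice in the window P2-12, and the window is not labelled for male VTA. In females the adult stress was sub-threshold variable stress (STVS), with the same 4 combinations in VTA, NAc and PFC. Each male VTA or male NAc library pools punches from 3 mice, and every other library is 1 mouse. Male VTA had 6 ELS defeat, 6 standard defeat, 4 ELS control and 4 standard control libraries. Male NAc had 6 libraries of defeat after ELS P10-20, 5 of defeat after ELS P2-12, 6 of standard defeat and 4 of each control. Male PFC and male HIP had 6 libraries in every group, and each female region had 6 ELS STVS, 5 standard STVS, 5 ELS control and 6 standard control libraries. Males and females came from separate cohorts, so sex and cohort cannot be told apart. The labels say that tissue was taken in the light phase, 24 hours after behavioural testing, and give no hour for any library.

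The clock of mammalian cells is a loop of transcription and repression. The activators encoded by Arntl (BMAL1) and Clock bind E-boxes and switch on the Per and Cry genes, whose proteins return to the nucleus and repress their own activation. Nr1d1 and Nr1d2 (REV-ERB alpha and beta) are switched on in the same way and repress Arntl, while Dbp encodes an output factor that binds D-boxes. In many mouse tissues the transcripts of Dbp, Per3, Nr1d1 and Nr1d2 are high during the day, and Arntl peaks in near-opposite phase. Per1 and Per2 are also induced acutely, outside the loop, by neuronal activity through cAMP response elements and by glucocorticoids.

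The promoter stretches below are shown because they hold the letters of an E-box or D-box. Whether these sites are used was not tested. They are RefSeq sequence of the GRCm38.p6 build, printed 5′ to 3′ on the strand of the gene. Those of Per1 and Cry1 end at the base before an annotated start of the transcript, and that of Per3 ends further upstream. Capitals mark CACGTG (E-box) in Per1 and Cry1 and TTATGTAA (D-box) in Per3.
Per1 (chr11:69098699-69098948, plus strand, inside the RefSeq span of Per1): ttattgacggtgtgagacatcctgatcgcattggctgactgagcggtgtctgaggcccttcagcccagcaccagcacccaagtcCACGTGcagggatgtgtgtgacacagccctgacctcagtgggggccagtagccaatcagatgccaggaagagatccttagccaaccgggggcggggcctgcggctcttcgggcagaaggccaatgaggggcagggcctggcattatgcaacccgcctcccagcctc
Cry1 (chr10:85185055-85185304, minus strand, overlapping no RefSeq gene): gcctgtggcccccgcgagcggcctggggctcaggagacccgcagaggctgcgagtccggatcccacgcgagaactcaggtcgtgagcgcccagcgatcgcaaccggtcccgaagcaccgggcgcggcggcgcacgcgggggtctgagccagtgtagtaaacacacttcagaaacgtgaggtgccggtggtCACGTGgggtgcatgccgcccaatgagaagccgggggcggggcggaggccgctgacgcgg
Per3 (chr4:151044708-151044852, minus strand, the part of the window that overlaps no RefSeq gene): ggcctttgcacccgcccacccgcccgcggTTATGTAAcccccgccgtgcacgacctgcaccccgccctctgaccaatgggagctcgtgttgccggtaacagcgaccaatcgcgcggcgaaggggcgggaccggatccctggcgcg

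RefSeq promoter rows matched 9 of the 10 genes, and 250 bases before each start were searched on both strands. CACGTG began 166 bases before 1 of the 2 annotated starts of Per1, the one printed, and 60 bases before the start of Cry1. Of 32851 promoters of the same length, 6.02% hold it. TTATGTAA, whose complement is TTACATAA, was in Per3 at 158 bases, as printed, and again at 205 bases. It is in 0.819% of promoters. AGGTCA (complement TGACCT), the half-site that REV-ERB and ROR receptors bind, was before the same start of Per1, in Nr1d2 and before 1 of the 3 annotated starts of Clock. It was in 4607 promoters of the 32851. TGACGTCA, the full cAMP response element, was in no window of these genes and in 1.55% of promoters. None of the letters searched overlapped another in a printed stretch, and a match describes letters and not a site that is used.

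Libraries held 13.6 to 42.7 M whole reads recovered from the normalised values, the depth of the male VTA table is unknown, and behind each value of a clock gene lay from 253 reads (Cry1, in HIP) to 6567 reads (Cry2, in male NAc). Markers fitted the labelled regions on median: the dopamine transporter Slc6a3 was at 32982 normalised reads in female VTA and 18.3 in female NAc, and the cortical transporter Slc17a7 at 54311 in female PFC. Single libraries did not: Slc6a3 reached 3853 normalised reads in a male PFC library and Slc17a7 reached 12381 in a female NAc library. HIP libraries were uneven too. The hippocampal marker Prox1 ran there from 515 to 5929 (median 3526), and the striatal marker Adora2a reached 3679 (median 61.4). By transcripts of sex or of the choroid plexus, 14 libraries stood apart from their groups (5 female, 6 HIP and 3 male PFC), and values without them are given only where stated. Relations of clock genes with summed marker lists and with depth, given below, were computed with them only. In HIP the libraries that stood apart were rich in Ttr, a choroid plexus transcript, and included 3 of the 6 standard controls and none of the standard defeat libraries. In bulk tissue a lower value may mean fewer cells that hold the transcript or less of it per cell, which cannot be told apart.

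The regions differed in nearly all clock genes. In females the Per genes and Dbp were much lower in VTA than in NAc, and Dbp and Cry1 were highest in NAc. In males all 10 genes were lower in HIP than in PFC. Values are the authors' normalised reads, which compare regions within a gene but not genes with each other, since they are not divided by transcript length.

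Per1, a repressor of the loop, ranged from 935.27 to 1310 normalised reads (median 1124) in 22 female VTA libraries, from 2337 to 4892 (median 3319) in 22 NAc libraries and from 2413 to 4390 (median 3097) in 22 PFC libraries. No VTA library reached the lowest NAc or PFC library, while NAc and PFC overlapped through most of their range. Averages were 1118 ± 88.0 in VTA, 3351 ± 559 in NAc and 3154 ± 462 in PFC (SD, n = 22 each). Per2, its close relative, followed the same order at 694.9 ± 76.4 in VTA, 1925 ± 283 in NAc and 1768 ± 227 in PFC. Per3, which is dispensable for rhythm in mice, was at 1316 ± 86.9 in VTA, 2104 ± 238 in NAc and 1987 ± 107 in PFC. Cry1, the strongest repressor, was at 449.9 ± 39.4 in VTA, 972.8 ± 103 in NAc and 532.7 ± 43.9 in PFC, so that the lowest NAc library (744.5) lay above the highest PFC library (632.8). Cry2 had the other order, with 2785 ± 114 in VTA, 4324 ± 248 in NAc and 5054 ± 297 in PFC.

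Dbp, the output factor, was at 1042 ± 106 normalised reads in female VTA, 2765 ± 242 in NAc and 1666 ± 165 in PFC. Its 3 ranges were 857.9 to 1238, 2382 to 3228 and 1423 to 1998, and none overlapped another. Nr1d1, a repressor of Arntl, was at 1658 ± 137 in VTA, 2548 ± 196 in NAc and 3507 ± 308 in PFC. Nr1d2 was nearly flat, at 4353 ± 216 in VTA, 4826 ± 288 in NAc and 4191 ± 295 in PFC. Arntl, the activator, was at 454.1 ± 25.4 in VTA, 880.96 ± 52.6 in NAc and 1014 ± 52.1 in PFC. Its partner Clock varied least among regions, at 2768 ± 97.4 in VTA, 2879 ± 349 in NAc and 3136 ± 228 in PFC.

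**Figure D1:**
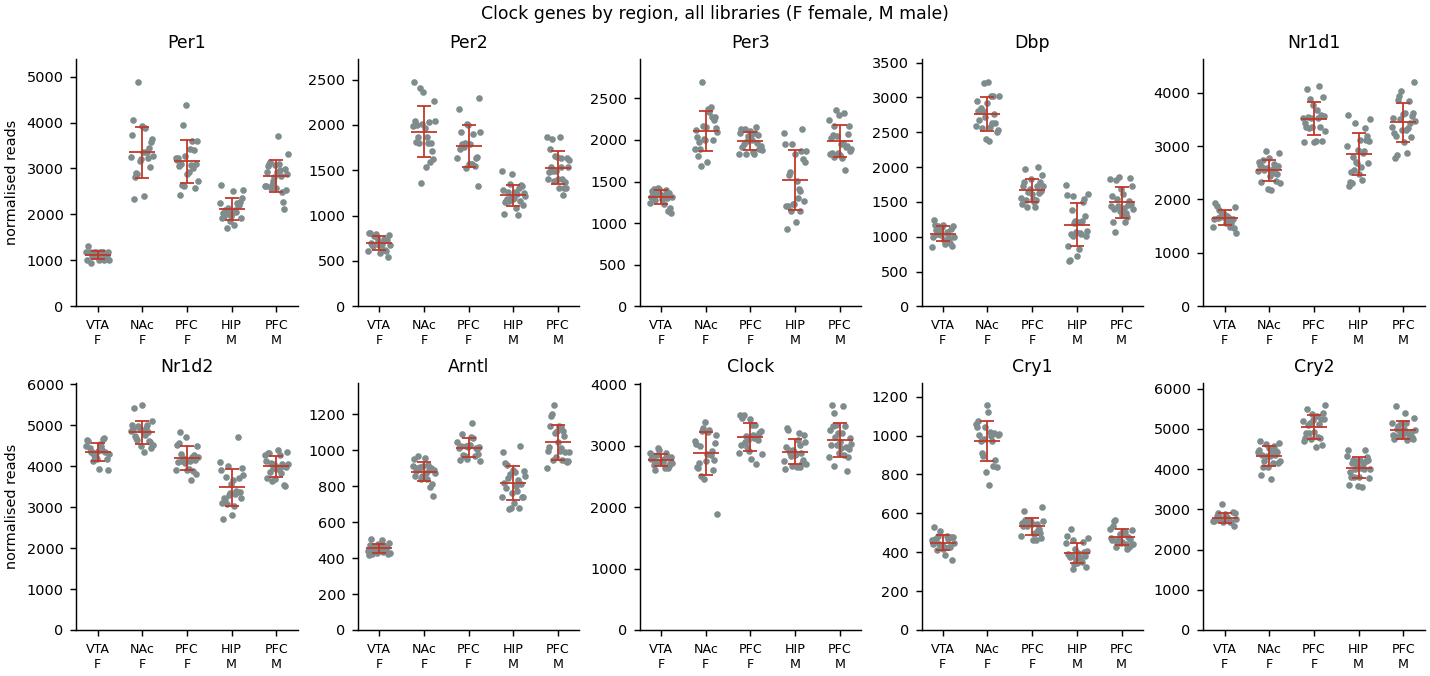
Normalised reads (y axis, from 0) of the 10 clock genes in every library of female VTA, NAc and PFC (22 each) and of male HIP and PFC (24 each), with points for libraries and red bars for mean ± SD. Per1, Per2, Dbp and Arntl sit lowest in VTA, Dbp and Cry1 highest in NAc, and Clock at a similar height in all 5 columns.

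Regions were compared with limma over the mean of the 4 groups of each region, with Benjamini-Hochberg adjustment over 14000 genes and a threshold of 0.05 that holds for every comparison below. For VTA against NAc, 9 of the 10 genes were called and all 9 were lower, in a comparison that called 89.5% of all genes. Per1 differed by a log2 fold change of -1.57 ± 0.06 (standard error; adjusted p = 1.26e-32), Per2 by -1.47 ± 0.06 (adjusted p = 4.01e-33) and Dbp by -1.41 ± 0.04 (adjusted p = 1.32e-38). The exception was Clock, at -0.04 ± 0.04 (adjusted p = 0.302). The median over the 10 genes was -0.81, beside 0.02 over all genes. For VTA against PFC all 10 were called and 9 were lower, where 88.7% of all genes were called. Per1 was at -1.48 ± 0.06, Per2 at -1.35 ± 0.06 and Arntl at -1.16 ± 0.02, and Nr1d2 alone was higher, by 0.05 ± 0.02 (adjusted p = 0.0370). With shares this high, a count of clock genes near all of them is what the background gives.

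NAc against PFC gave both directions. Of 9 called genes, beside 83.9% of all genes, 5 were higher in NAc: Cry1 by 0.86 ± 0.04 (adjusted p = 7.49e-29), Dbp by 0.73 ± 0.04 (adjusted p = 8.54e-24), Nr1d2 by 0.20 ± 0.02, Per2 by 0.12 ± 0.06 (adjusted p = 0.0431) and Per3 by 0.08 ± 0.03 (adjusted p = 0.0389). The 4 lower in NAc were Nr1d1 at -0.46 ± 0.04 (adjusted p = 6.48e-18), Cry2 at -0.23 ± 0.02, Arntl at -0.20 ± 0.02 and Clock at -0.14 ± 0.04. Per1 was not called, at 0.09 ± 0.06 (adjusted p = 0.183). The paralogues Cry1 and Cry2 thus had opposite signs, as did Nr1d2 and Nr1d1.

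In males, HIP against PFC called all 10 clock genes lower, beside 71.2% of all genes called. Per1 ranged from 1697 to 2641 normalised reads (median 2081) in 24 HIP libraries and from 2111 to 3705 (median 2853) in 24 PFC libraries, so the ranges overlapped. Per1 differed by -0.42 ± 0.05 (adjusted p = 6.11e-11), Per3 by -0.42 ± 0.07 (adjusted p = 1.14e-06) and Dbp by -0.38 ± 0.09 (adjusted p = 0.000125). Without the libraries that stood apart Per3 was at -0.31 and Dbp at -0.34, both still called. The choroid plexus list (5 of 5 measured) was higher in HIP, with a median of 2.81, and its part in the difference was not tested.

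Activity genes, a list of 10 that includes Fos, Arc and Egr1 and that neurons induce as they fire, moved with the regions too. They were lower in VTA than in NAc (8 of 10 called, median -2.71) and than in PFC (10 of 10, median -3.38). They were also lower in NAc than in PFC (10 of 10, median -0.79) and in HIP than in PFC (9 of 10, median -1.27). Of all genes, 89.5%, 88.7%, 83.9% and 71.2% were called in these comparisons, so such counts are near what the background gives. Their part in the levels of Per1 and Per2 was not tested here.

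Standard controls of PFC were also compared between the male and the female cohort. None of the 10 genes was called with limma or with edgeR, 1 had an unadjusted p under 0.05, and 0.0786% of all genes were called. That gene was Dbp, with 1316, 1611, 1416, 1208, 1345 and 1283 normalised reads in males and 1539, 1501, 1434, 1532, 1729 and 1998 in females. The male values sat lower and overlapped the female ones, at a log2 difference of -0.25 ± 0.10 (adjusted p = 0.585).

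Male VTA is the one region in units per transcript length (RPKM, reads scaled to transcript length and library size), so levels can be ordered there. Nr1d2 was highest at 26.0 ± 1.60 RPKM (SD, n = 20), then Nr1d1 at 18.9 ± 2.63, Cry2 at 15.4 ± 0.850, Dbp at 11.5 ± 1.91, Clock at 10.1 ± 0.549, Per1 at 6.95 ± 0.972, Arntl at 5.65 ± 0.951, Cry1 at 4.45 ± 0.543, Per3 at 3.80 ± 0.452 and Per2 at 3.56 ± 0.454. Dbp and Clock lay within their spread of each other, as did Per3 and Per2. The REV-ERB genes thus had the most transcript and the Per genes, apart from Per1, the least.

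The male NAc table was scaled on its own, so its levels are not set against other regions. There Cry2 had 5215 ± 229 normalised reads (SD, n = 29), Nr1d2 4049 ± 242, Per1 3784 ± 440, Nr1d1 3314 ± 330 and Arntl 1119 ± 97.5.

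How far libraries of 1 group differed was measured as the SD of log2(value + 1) around group means. Dbp in HIP had the widest spread of any clock gene, 0.386, at the 86.9th percentile of all genes tested in that set, followed by Per3 in HIP at 0.327 (82.5th percentile). Dbp ran from 657.86 to 1741 normalised reads over 24 HIP libraries, 2.65-fold, and Per3 from 926.57 to 2136, 2.31-fold. Per1 was next, at 0.253 in female NAc, where it ran from 2337 to 4892. Clock was narrow in female VTA, at 0.0509, and in male VTA, at 0.0622. Over the clock genes the median SD was 0.169 in HIP, beside 0.156 over all genes, and 0.138 in male VTA, beside 0.0996. It was 0.133 in male PFC beside 0.120, 0.147 in female NAc beside 0.138, and 0.107 in female PFC beside 0.118. In female VTA it was 0.0997 beside 0.107, and in male NAc 0.127 beside 0.210. The gap in male NAc depended on the number added to each value before the log. With a larger number added, the median SD there was 0.1255 over the clock genes beside 0.1273 over all genes. Male VTA and male NAc libraries pool 3 mice each, and the other sets do not.

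The stress comparisons asked whether ELS, adult stress or both left the clock genes at another level. There were 41 contrasts: 5 in each of 6 sets (each stress alone, the second stress after ELS, ELS among stressed mice, and their interaction) and 11 in male NAc. Limma called 0 clock genes and 0 genes of any kind in all 41, so that percent called was 0 throughout. With edgeR on recovered reads, also 0 clock genes were called in the 36 contrasts it could be run on (all but male VTA). At an unadjusted p under 0.05 there were 18 of 355 tests on clock genes, 5.07%, beside 6.27% of the tests on all genes. Fitted log2 fold changes of clock genes lay between -0.42 and 0.45 with a median size of 0.05. What follows gives the tests of smallest p in each region, with Dbp and Arntl as genes of opposite daily phase. None of it passed adjustment, and p-values are limma's, adjusted over all genes.

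**Figure D2:**
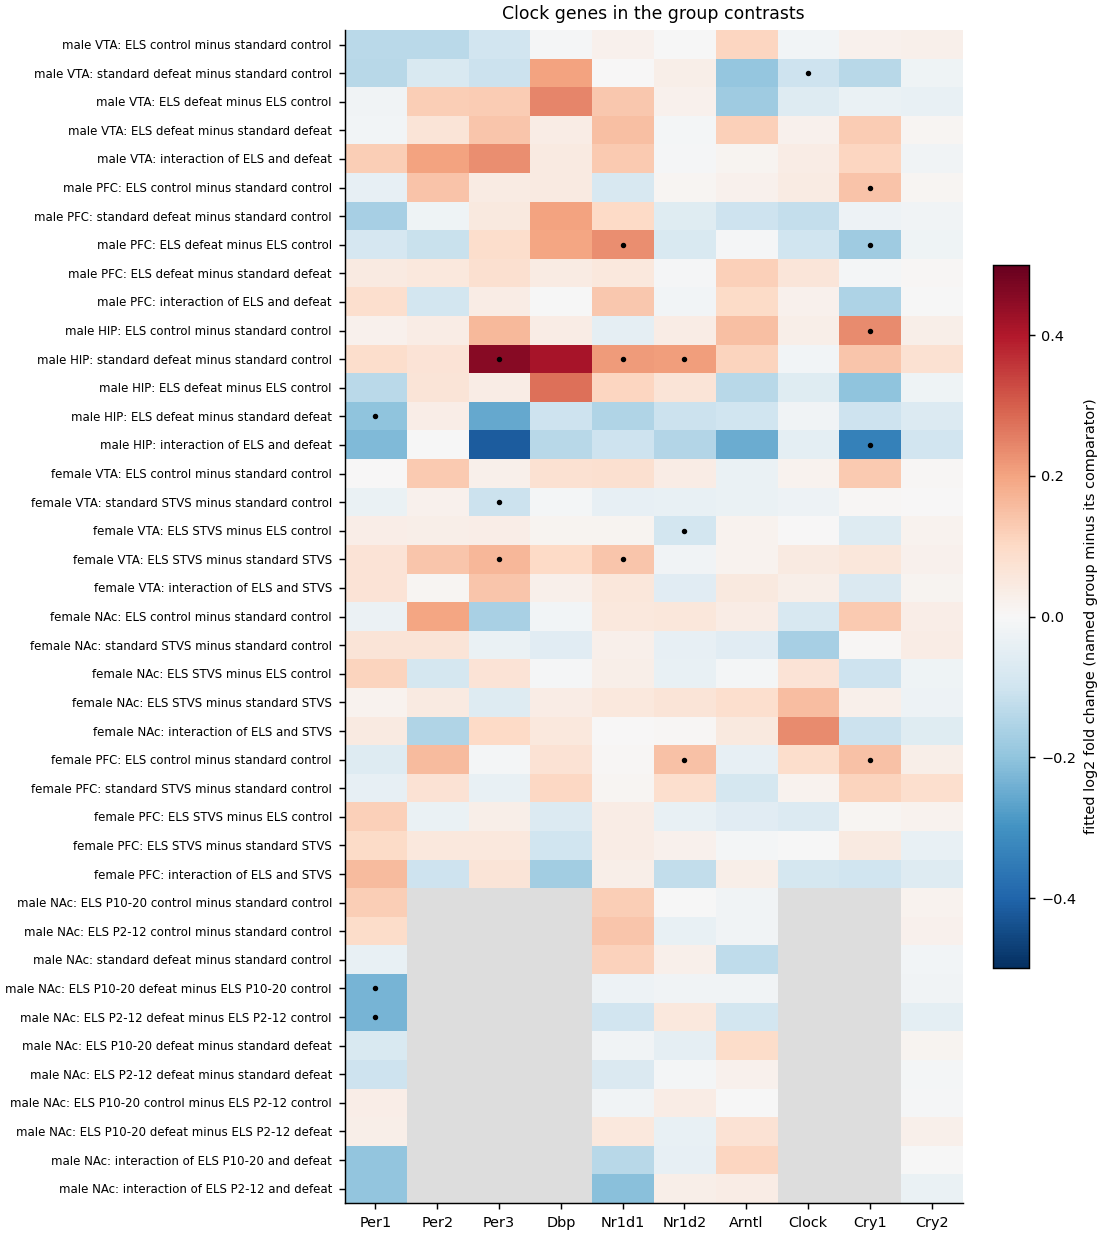
Fitted log2 fold change (colour) of the 10 clock genes (columns) in the 41 stress contrasts (rows, the named group minus its comparator), with a black dot at an unadjusted p under 0.05 and grey where a gene is not in the table. The strongest colours, Per3 at 0.45 and Dbp at 0.41, are in HIP for standard defeat minus standard control, and 18 cells carry a dot.

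In HIP, Per3 had 1866, 2136, 1768, 1269, 1739 and 1865 normalised reads in standard defeat libraries and 1009, 1508, 1305, 1406, 1382 and 1140.2 in standard controls. All but 1 of the defeat libraries lay above every control. The log2 fold change was 0.45 ± 0.18 (adjusted p = 0.312). Dbp had 1501, 1548, 1304, 1014, 1083 and 1610.2 in the same defeat libraries and 723.97, 1207, 817.1, 1056, 1042 and 1220 in the controls, which overlapped. Its log2 fold change was 0.41 ± 0.21 (adjusted p = 0.370), and that of Arntl was 0.11 ± 0.09 (adjusted p = 0.583). Nr1d1 (0.21 ± 0.10, adjusted p = 0.345) and Nr1d2 (0.21 ± 0.10, adjusted p = 0.333) pointed the same way, so that 3 of the 10 genes had an unadjusted p under 0.05, beside 14.4% of all genes. The median over the clock genes was 0.12, with 9 of 10 above 0, beside -0.01 over all genes. The choroid plexus list had fold changes below 0 (5 of 5 measured, median -3.98, 3 at an unadjusted p under 0.05, none called), and its part was not tested. Without the libraries that stood apart Per3 was at 0.33 and Dbp at 0.39 (adjusted p = 1.00 for both).

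After ELS, Per3 was at 0.04 ± 0.18 in defeat minus control (adjusted p = 0.973). Dbp had 1388, 1006, 1584, 1201, 1224 and 1071 in ELS defeat libraries and 1741, 1599, 867.5, 657.9, 671.3 and 1044 in ELS controls. ELS controls held both the highest and the lowest Dbp value of the hippocampus, and ELS defeat libraries lay between them. The log2 fold change was 0.27 ± 0.21 (adjusted p = 0.795). The interaction of ELS and defeat was -0.42 ± 0.25 for Per3 (adjusted p = 0.514) and -0.14 ± 0.30 for Dbp (adjusted p = 0.878), and neither was called. Per1 was at -0.20 ± 0.08 in ELS defeat minus standard defeat (adjusted p = 0.958), with 2064, 1697, 2136, 2012, 1859 and 1956 in ELS defeat and 2198, 2216, 2264, 1925, 2353 and 2542 in standard defeat. Arntl had its smallest unadjusted p in HIP at the interaction (-0.25 ± 0.13, adjusted p = 0.455). Cry1 was at 0.23 ± 0.10 in ELS control minus standard control (adjusted p = 0.752). Its interaction was -0.34 ± 0.14 (adjusted p = 0.373).

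**Figure D3:**
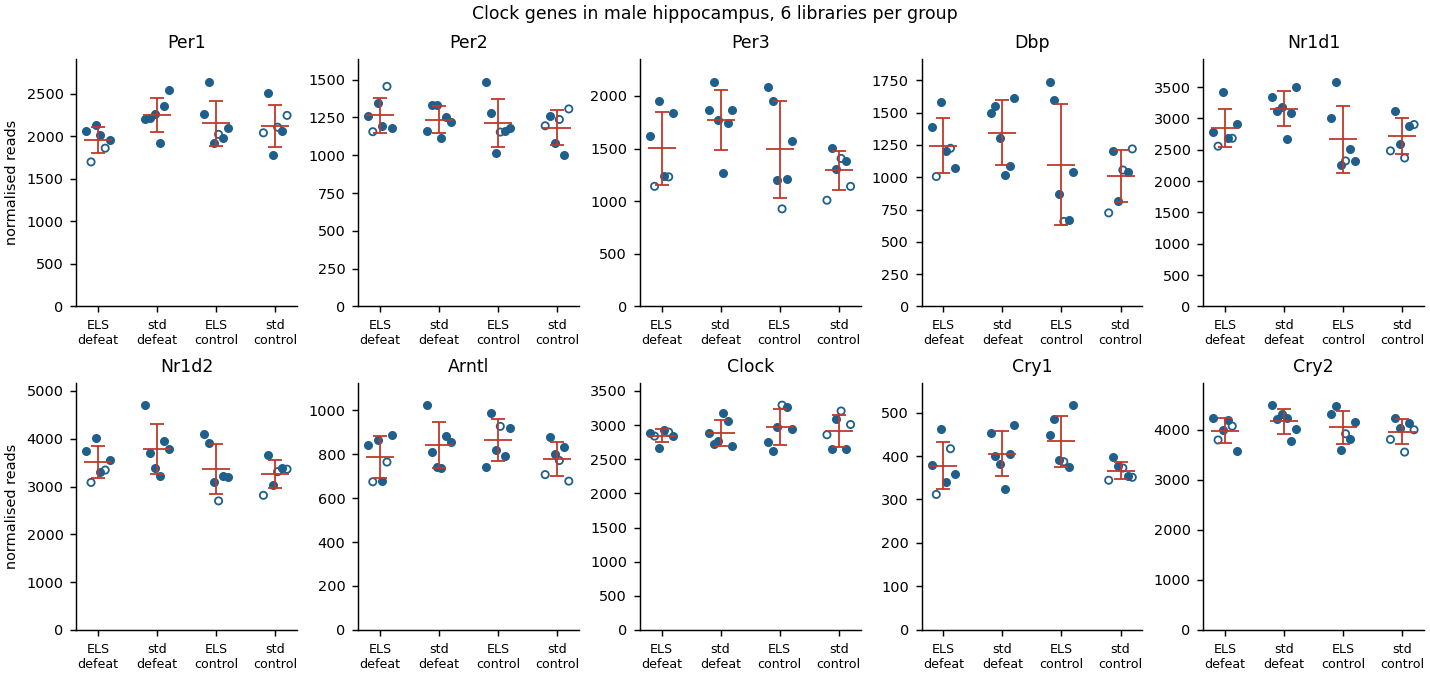
Normalised reads (y axis, from 0) of the 10 clock genes in male HIP, 6 libraries per group (points; open points are libraries that stood apart), with red bars for mean ± SD. Standard defeat sits above standard control in Per3 and Dbp, and ELS controls are split between 1741 and 657.9 in Dbp.

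In male PFC, Nr1d1 had the smallest adjusted p of any clock gene. It was at 3869, 3937, 3503, 4022, 3298 and 3604 normalised reads in ELS defeat libraries and 3362, 3524, 3247, 2785, 3188 and 2828 in ELS controls. Only 2 of the 6 ELS defeat values fell within the range of the controls, at a log2 fold change of 0.23 ± 0.07 (adjusted p = 0.188). Cry1 pointed down in the same contrast, with 427.4, 447.6, 468.4, 463.5, 493.2 and 445.9 in ELS defeat and 521.2, 470.6, 463.8, 532.3, 557.97 and 566.9 in ELS controls (-0.18 ± 0.06, adjusted p = 0.203). These were 2 of 10 clock genes at an unadjusted p under 0.05, beside 16.7% of all genes. Dbp was at 0.20 ± 0.11 there (adjusted p = 0.336) and at 0.20 ± 0.11 in standard defeat minus standard control (adjusted p = 0.995). Arntl was at -0.01 ± 0.07 after ELS (adjusted p = 0.976). The activity list had fold changes below 0 in this contrast (10 of 10 measured, median -0.65, 8 at an unadjusted p under 0.05, none called), while Per1, an activity-induced gene as well, had no unadjusted p under 0.05.

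In male VTA, Clock was at 9.72, 9.67, 9.61, 9.60, 9.55 and 10.2 RPKM in standard defeat libraries and at 10.04, 10.3, 10.7 and 11.1 in standard controls. One defeat library overlapped the controls, at a log2 fold change of -0.10 ± 0.04 (adjusted p = 0.691). Per3 had an interaction of 0.23 ± 0.12 (adjusted p = 0.817). It came from 4.60, 3.64, 3.75, 3.43, 4.49 and 4.40 RPKM in ELS defeat, 3.07, 3.69, 2.86, 3.68, 3.85 and 4.40 in standard defeat, 3.50, 3.66, 3.87 and 3.41 in ELS control and 4.21, 3.82, 3.84 and 3.81 in standard control. Dbp was at 0.25 ± 0.13 in ELS defeat minus ELS control (adjusted p = 0.972) and 0.20 ± 0.13 in standard defeat minus standard control (adjusted p = 0.692). Unadjusted p under 0.05 was met by 2.03% of all genes in ELS control minus standard control, 6.56% in standard defeat minus standard control, 4.57% in ELS defeat minus ELS control and 5.77% in ELS defeat minus standard defeat, beside 1 clock gene in all. Arntl had the other sign in both, at -0.18 ± 0.11 (adjusted p = 0.972) and -0.19 ± 0.11 (adjusted p = 0.691).

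In male NAc, Per1 gave values below 0 for defeat after either window of ELS. It was at 2941, 3528, 3978, 3792, 3637 and 3465 normalised reads in defeat after ELS P10-20 and at 4438, 3994, 4504 and 3764 in its controls (-0.23 ± 0.09, adjusted p = 0.562), where 2 defeat libraries lay above the lowest control. After ELS P2-12 it was at 3313, 3830, 3174, 3463 and 3614 in defeat and at 3911, 4661, 3936 and 3840.0 in controls, without overlap (-0.23 ± 0.10, adjusted p = 0.596). The activity list had 7 of 7 measured genes below 0 in the same contrasts, none called, with medians of -0.42 and -0.55, 6 and 7 of them at an unadjusted p under 0.05. Its part in Per1 was not tested. Unadjusted, these contrasts had 8.41% and 7.71% of all genes under 0.05. Arntl was at -0.02 ± 0.08 after ELS P10-20 and -0.09 ± 0.08 after ELS P2-12, and Dbp was not analysed in this table.

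In females, Per3 in VTA had the smallest unadjusted p of all clock genes. It was at 1273, 1353, 1413, 1419, 1410.5 and 1353 normalised reads in ELS STVS libraries and at 1141, 1364, 1176, 1126 and 1319 in standard STVS libraries, a log2 fold change of 0.16 ± 0.05 (adjusted p = 0.927). The groups overlapped, and 2 of 10 clock genes were at an unadjusted p under 0.05 beside 4.20% of all genes. Nr1d2 was at -0.09 ± 0.04 in ELS STVS minus ELS control (adjusted p = 1.00), with 4359, 4125, 4272, 4212, 4233 and 4189 in ELS STVS and 4486, 4648, 4628, 4453 and 4339 in ELS control. In NAc no clock gene had an unadjusted p under 0.05. The smallest were Per3 at -0.16 ± 0.09 (adjusted p = 0.503) and Per2 at 0.20 ± 0.12 (adjusted p = 0.543), both for ELS control minus standard control. In PFC the same contrast had Nr1d2 at 0.15 ± 0.05 (adjusted p = 1.00) and Cry1 at 0.14 ± 0.07 (adjusted p = 1.00), 2 of 10 clock genes beside 3.29% of all genes. Dbp in females never passed an unadjusted p of 0.05, and its largest value was an interaction of -0.17 ± 0.11 in PFC (adjusted p = 0.700). Arntl came nearest for standard STVS minus standard control in PFC, at -0.09 ± 0.04 (adjusted p = 0.861).

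The other question was whether clock genes deviate together from library to library, a measure that bears on time of tissue collection. The hour itself was not tested, since the labels give none. For each set, Pearson's r and Spearman's rho were taken between deviations from group means, each with a two-sided permutation test of 100000 resamples within groups, adjusted over all 280 pairs of clock genes in the 7 sets. Of these, 69 pairs were called by r, 61 positive and 8 negative. HIP had the most, 22 of 45 pairs, then male VTA with 18 of 45, female NAc with 10 of 45 and male PFC with 7 of 45. Female VTA and female PFC had 5 of 45 each and male NAc had 2 of 10. The share of all gene pairs called by this test was not computed, so sizes of r were compared instead. Over all pairs of genes tested in a set the median r was between -0.00 and 0.04. An r of at least 0.6 was reached by 14 of 45 clock pairs in HIP (4.70% of all gene pairs), 19 of 45 in male VTA (6.44%), 8 of 45 in female NAc (3.90%), 5 of 45 in female PFC (3.45%), 3 of 45 in female VTA (3.96%), 2 of 45 in male PFC (3.71%) and 1 of 10 in male NAc (0.81%). An r of -0.6 or lower was reached by 4 of 45 clock pairs in HIP (3.67% of all gene pairs) and 2 of 45 in male PFC (2.63%), and by none in the other sets (0.50% to 4.24%).

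**Figure D4:**
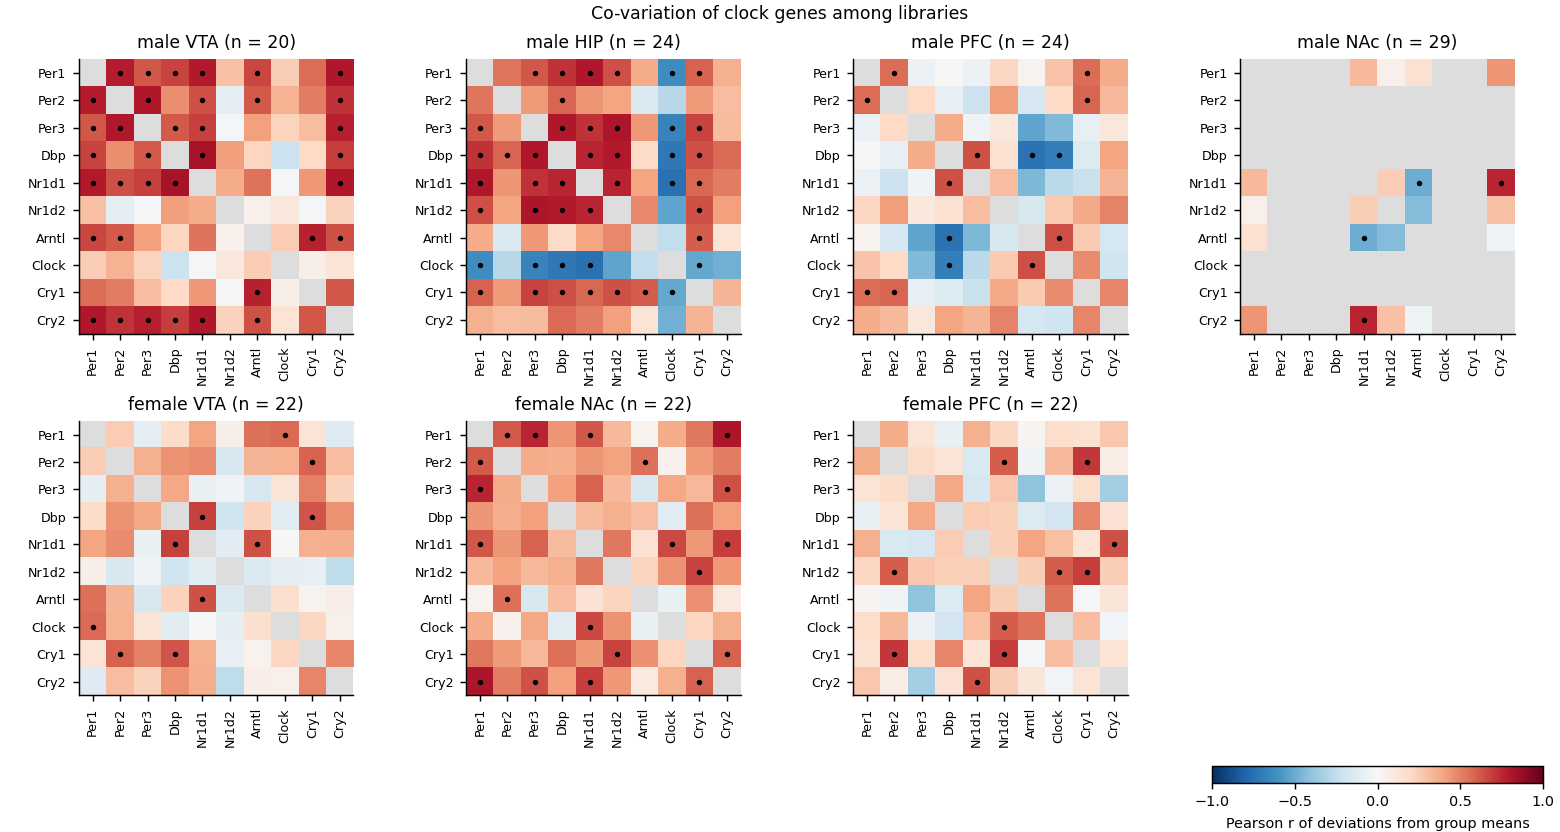
Pearson r (colour, -1 to 1) between deviations of 2 clock genes from their group means in each of the 7 sets, with a black dot at an adjusted p under 0.05 and grey where a gene is not in the table. Male HIP has a block of positive pairs among Per1, Per3, Dbp, Nr1d1, Nr1d2 and Cry1 with a negative row of Clock. Male VTA is positive in 40 of 45 pairs, with no dot for Nr1d2 or Clock. Female VTA and female PFC have few dots.

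The Per genes, Dbp and the REV-ERB genes make 15 pairs. In HIP all 15 were positive, from 0.39 to 0.81 with a median of 0.72, and 11 were called. The median was 0.73 without the libraries that stood apart. Per3 and Nr1d2 had r = 0.81 (p = 3e-05, adjusted p = 0.00245) and rho = 0.80 (adjusted p = 0.00490), and r = 0.74 without the 2 libraries farthest out in Per3. Per3 and Dbp had r = 0.80 (p = 7e-05, adjusted p = 0.00245), rho = 0.77 (adjusted p = 0.00490) and 0.74 without the 2. Per1 and Nr1d1 had r = 0.80 (p = 3e-05, adjusted p = 0.00245), rho = 0.76 (adjusted p = 0.00509) and 0.69 without the 2. Libraries above their group mean in Dbp were thus mostly above it in Per3 too.

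Clock was the gene that ran against these in HIP. All 6 of its pairs with them were negative and 4 were called. With Nr1d1 it had r = -0.74 (p = 0.00029, adjusted p = 0.00677), rho = -0.69 (adjusted p = 0.0158) and -0.67 without the 2 libraries farthest out in Nr1d1. With Dbp it had r = -0.72 (p = 0.00127, adjusted p = 0.0138), rho = -0.64 (adjusted p = 0.0276) and -0.66 without the 2. Dbp was widely correlated in HIP: 95% of 13990 other genes had an r with it between -0.71 and 0.68, and the r of Clock lies at the edge of that range. Arntl, which has the opposite daily phase to Dbp, did not run against them in HIP: 5 of its 6 pairs were positive, their median was 0.39, and none was called. The level of Dbp there was not tied to choroid plexus transcripts by a called relation (r = -0.25, adjusted p = 0.489, one of 102 relations with summed marker lists and depth). With the summed hippocampal list, Per1 had r = 0.45 (p = 0.0465, adjusted p = 0.279; rho = 0.50, adjusted p = 0.179). Dbp had r = 0.20 with it (adjusted p = 0.757), and neither was called. The part of tissue composition in the HIP pairs was not tested.

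In male PFC Arntl ran against Dbp. Dbp and Arntl had r = -0.74 (p = 0.00055, adjusted p = 0.00955), rho = -0.70 (adjusted p = 0.0126) and -0.63 without the 2 libraries farthest out in Dbp. Dbp and Clock had r = -0.68 (p = 0.00119, adjusted p = 0.0138), rho = -0.75 (adjusted p = 0.00607) and -0.60 without the 2. Arntl and Clock were positive with each other (r = 0.64, p = 0.00302, adjusted p = 0.0211; rho = 0.66, adjusted p = 0.0211), as were Dbp and Nr1d1 (r = 0.64, p = 0.00175, adjusted p = 0.0155; rho = 0.67, adjusted p = 0.0158). The 15 pairs among Per, Dbp and REV-ERB genes were otherwise loose here, with a median of 0.15 and 2 called. Dbp ran against the whole reads of the library without being called (r = -0.48, p = 0.00435, adjusted p = 0.0598, and rho = -0.55, adjusted p = 0.0798). The part of depth in the pairs of Dbp was not tested.

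**Figure D5:**
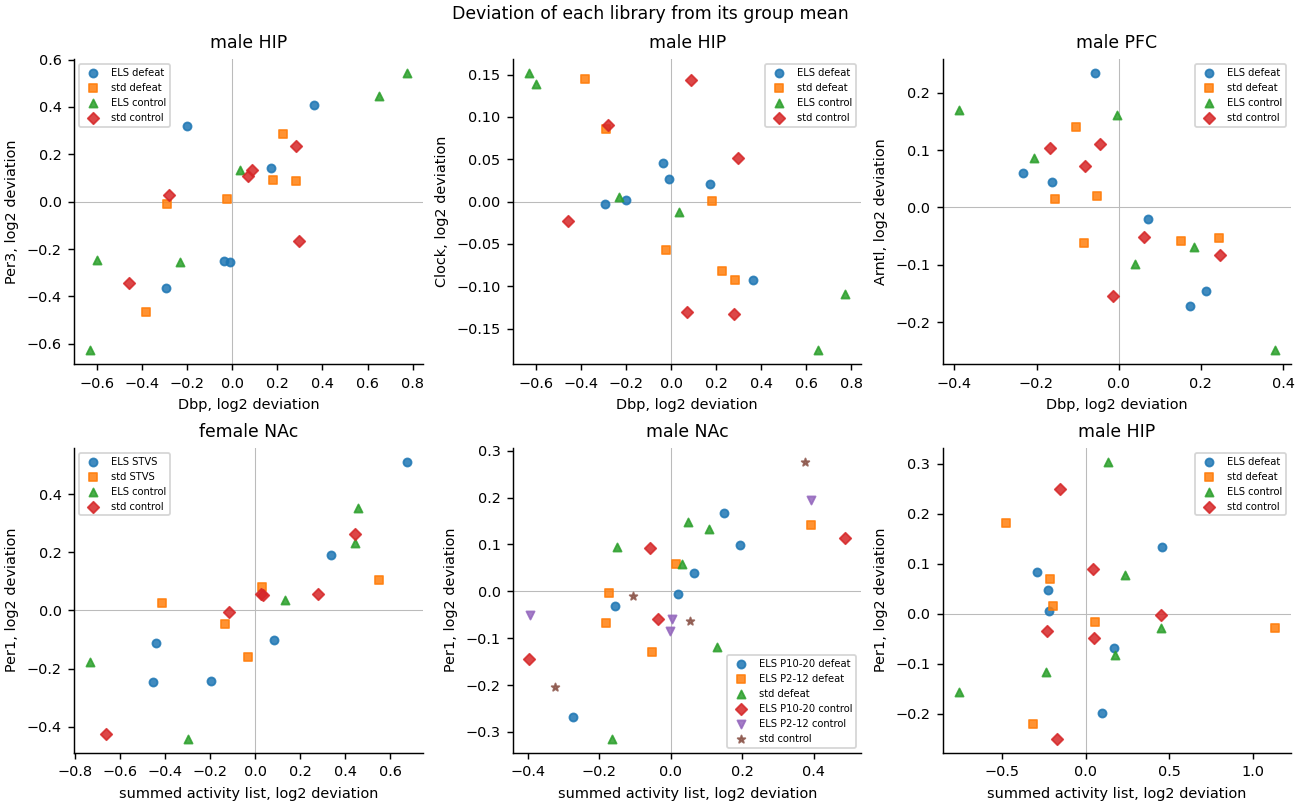
Deviation of each library from its group mean (log2 axes; symbols are groups). Top row: Per3 and Clock against Dbp in HIP (r = 0.80 and -0.72) and Arntl against Dbp in male PFC (r = -0.74). Bottom row: Per1 against the summed activity list in female NAc (r = 0.83), male NAc (r = 0.70) and HIP (r = 0.10).

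In the pooled libraries of male VTA every called pair was positive, Arntl included. Dbp and Nr1d1 had r = 0.82 (p = 1e-05, the smallest that the permutations can give, adjusted p = 0.00245), rho = 0.78 (adjusted p = 0.00504) and 0.82 without the 2 libraries farthest out in Dbp. Per1 and Per2 had r = 0.78 (p = 7e-05, adjusted p = 0.00245), rho = 0.82 (adjusted p = 0.00509) and 0.79 without the 2. Cry2 was called with 5 of the 6 Per, Dbp and REV-ERB genes, with a median r of 0.75. Arntl had r = 0.67 with Per1 (p = 0.00545, adjusted p = 0.0293), though rho was 0.56 (adjusted p = 0.0815), and r = 0.77 with Cry1 (p = 0.00194, adjusted p = 0.0159; rho = 0.66, adjusted p = 0.0557). Its 6 pairs with the Per, Dbp and REV-ERB genes were all positive. Markers of tissue composition moved with Per1 in these libraries: with the summed myelin list r was -0.67 (p = 0.00214, adjusted p = 0.0437; rho = -0.63, adjusted p = 0.0909; -0.64 without the 2 farthest). With the choroid plexus list r was 0.52 (adjusted p = 0.138). Their part in the positive pairs was not tested.

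In male NAc Nr1d1 went with Cry2 (r = 0.76, p = 7e-05, adjusted p = 0.00245; rho = 0.72, adjusted p = 0.00509). Nr1d1 and Arntl had r = -0.49 (p = 0.0110, adjusted p = 0.0477), but rho = -0.37 was not called (adjusted p = 0.166), and r was -0.41 without the 2 libraries farthest out in Nr1d1. In female NAc Per1 went with Cry2 (r = 0.81, p = 0.00019, adjusted p = 0.00484; rho = 0.80, adjusted p = 0.00509) and with Per3 (r = 0.76, p = 0.00083, adjusted p = 0.0122; rho = 0.67, adjusted p = 0.0195). In female PFC Nr1d2 went with Cry1 (r = 0.69, p = 0.00143, adjusted p = 0.0143; rho = 0.61, adjusted p = 0.0374). In female VTA Per1 went with Clock (r = 0.57, p = 0.00114, adjusted p = 0.0138; rho = 0.66, adjusted p = 0.00640) and Dbp with Cry1 (r = 0.63, p = 0.00313, adjusted p = 0.0214; rho = 0.65, adjusted p = 0.0195). There 95% of 13990 other genes had an r with Dbp between -0.59 and 0.63, and the r of Cry1 lies at the edge of that range. The 15 pairs among Per, Dbp and REV-ERB genes had a median of 0.41 in female NAc, 0.24 in female PFC and 0.18 in female VTA. Dbp with Nr1d1 and Nr1d1 with Cry2 were the pairs called in most sets, 4 each, and both were positive in all 4.

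Deviations were also set side by side between regions. Libraries of 2 regions share group codes and numbers, but the labels do not tie them to 1 mouse. Standard STVS replicate 3 was low in Xist in all 3 female regions. It had 100.9 normalised reads in NAc (median 42172), 166.0 in PFC (median 28507) and 6152 in VTA (median 15463). Over all genes shared by 2 regions, same-numbered libraries had median correlations of deviations from 0.02 to 0.06. Those of other numbers in the same group had medians from -0.02 to -0.01. Whether same-numbered libraries come from 1 mouse was not tested. Of 40 relations (10 genes in 3 female and 1 male pair of regions), 1 was called: Per2 between female NAc and female PFC (r = 0.65, p = 0.00117, adjusted p = 0.0468; rho = 0.60, adjusted p = 0.0970; r = 0.66 without the 2 farthest libraries). This call was lost without the libraries that stood apart (r = 0.63, adjusted p = 0.151), with quantile normalisation (r = 0.63, adjusted p = 0.0600) and in 15 of 22 analyses that each left out 1 same-numbered pair of libraries (r of Per2 from 0.60 to 0.73). Per1 in the same regions had r = 0.62 (p = 0.00502, adjusted p = 0.1004) and rho = 0.71 (adjusted p = 0.0244). Dbp had r = 0.03 there and 0.20 between HIP and PFC in males (adjusted p = 0.972 and 0.741), neither called. The spread of Dbp was also the widest of the 10 clock genes in male PFC, with an SD of 0.196.

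Deviations of Per1 went with those of the summed activity list in female NAc (r = 0.83, p = 6e-05, adjusted p = 0.00306; rho = 0.88, adjusted p = 0.00102; 0.82 without the 2 farthest libraries) and in male NAc (r = 0.70, p = 4e-05, adjusted p = 0.00306; rho = 0.70, adjusted p = 0.00459; 0.70 without the 2). In the same female NAc libraries Per1 ran against the summed myelin list (r = -0.63, p = 0.00126, adjusted p = 0.0428; rho = -0.71, adjusted p = 0.0173; -0.66 without the 2). With the striatal list r was 0.69 (p = 0.00395, adjusted p = 0.0598; rho = 0.64, adjusted p = 0.0909). The part of cell composition in these relations was not tested. In female PFC r with the activity list was 0.74 (adjusted p = 0.0437; rho = 0.67, adjusted p = 0.0798). In HIP and male VTA, where Per1 followed Dbp and Nr1d1, it was 0.10 (adjusted p = 0.838) and 0.30 (adjusted p = 0.489). In male PFC it was 0.47 (adjusted p = 0.138; rho = 0.57, adjusted p = 0.0909) and in female VTA 0.37 (adjusted p = 0.394), also not called. Differences between sets were not tested. Dbp had no called relation with the activity list in any set, with r from -0.40 to 0.29. The summed glucocorticoid list (Fkbp5, Sgk1 and others, 10 genes, of which male NAc holds 5) had no called relation with Per1 or Dbp.

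Outside the 10 genes, likeness to Dbp was the mean of its r over the 6 sets that hold Dbp, among 12526 genes tested in all of them. Med25 (0.617), Bhlhe41 (0.616), Ldb1 (0.602), Pcif1 (0.589), Chadl (0.572) and C1qtnf4 (0.566) were highest. Bhlhe41 (DEC2) is itself a clock repressor, and its r with Dbp was 0.84 in HIP and 0.28 in male VTA. Lowest were Chordc1 (-0.651), Exoc6b (-0.618), Hspd1 (-0.609) and Hspa8 (-0.594), of which Hspd1 and Hspa8 encode heat shock proteins. Among other clock genes Usp2 was 29th (0.493), Hlf, a relative of Dbp, 47th (0.472) and Tef, another relative, 278th (0.371).

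A list of 22 further clock genes gave the same picture in the stress contrasts. Between 13 and 20 were tested in a contrast, 0 were called in all 41 with limma, and 46 of 743 tests, 6.19%, had an unadjusted p under 0.05. The smallest p values included Btrc, part of the ligase that degrades PER, in HIP (ELS defeat minus ELS control, -0.15 ± 0.04, adjusted p = 0.455), Rora, an activator of Arntl, in HIP (standard defeat minus standard control, 0.39 ± 0.15, adjusted p = 0.306) and Hlf in female VTA (ELS control minus standard control, 0.20 ± 0.06, adjusted p = 0.873). Between regions they had no common direction: 8 were higher and 7 lower in VTA than in NAc, and 6 higher and 10 lower in HIP than in PFC. These comparisons called 89.5% and 71.2% of all genes.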

How the data were processed

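RNA was measured by poly-A RNA-seq, single-end and unstranded per the labels, with HISAT, TopHat2 and HTSeq in the submitters' processing notes, on mm10 (mm9 and mm10 for male VTA). The deposited male VTA table holds RPKM values from the authors. The other 2 deposited tables hold the authors' normalised reads (signal: gene counts divided by a size factor per library), each table scaled on its own. From these, whole reads were recovered (100% of positive values within 0.001 of a whole read). The values were normalised, so limma and not a count test was the main test, and levels are compared only within a table. Unstranded reads of overlapping genes cannot be told apart. In male VTA 181 genes without values were left out.

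Fits were made in R 4.3.3 with limma 3.58.1, using its trended and robust variance options. They took log2(value + 1) as response and a mean for each group, on the 14000 genes of highest mean, or in male VTA those with a mean RPKM of at least 0.5. A fold change on this scale understates that of low genes. Replicate numbers were no block. Alternatives were edgeR 4.0.16 (TMM, and size factors of DESeq2 1.42.0) on recovered reads, quantile normalisation, no filter, other pseudocounts (0.1 for RPKM, 10 for normalised reads), a replicate block, standard controls only between regions, leaving out each library, and leaving out libraries that stood apart: a male with Xist above 200, a female with Ddx3y above 50 or Xist under 0.5 of its region's median, or any with Ttr above 10000. Python 3.11.15 with NumPy 2.4.6 and pandas 2.3.3 gave the permutation tests. The fits and tests were tested on simulated data. The rule for naming was the 2 tests of smallest p per region where none passed, plus Dbp and Arntl, and the 3 largest fold changes between regions. Further genes and pairs named were chosen after their values were seen. The clock genes, lists and rules were chosen with earlier results of these data known. In female NAc 10 libraries, whose adult label repeats the sex, were grouped by title. Chromatin and input samples (16) were not used here. The extraction protocol names male mice for all samples, and the sex label was followed.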

Additional observations from a re-analysis of the deposited data

Results flagged for a closer look

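In 17 of 270 combinations of a clock gene and a group, 1 library lay far from the others of its group by Dixon's test, where chance flags about 1 in 20 groups. No interaction of ELS with the adult stress was called for a clock gene.

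Among the repressors, Per1 was high in ELS P2-12 control replicate 2 of male NAc (4661 normalised reads) and low in ELS control replicate 5 of female PFC (2413). Per2 was high in standard defeat replicate 6 of male VTA (4.62 RPKM), which was also high in Clock (10.2 RPKM). Per3 was high in standard control replicate 1 of male VTA (4.21 RPKM) and low in standard control replicate 2 of female NAc (1729.5 normalised reads), which was also low in Nr1d2 (4339). Cry1 was high in ELS control replicate 3 of female VTA (532.0), and Cry2 in ELS STVS replicate 4 of female VTA (3125). ELS control replicate 2 of male VTA was high in Cry2 (17.5 RPKM) and in Nr1d1 (24.4 RPKM).

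Nr1d1 was high in standard defeat replicate 4 of male NAc (3983 normalised reads). Nr1d2 was high in standard STVS replicate 4 of female NAc (5101), in ELS STVS replicate 6 of female PFC (4706) and in ELS P10-20 control replicate 2 of male NAc (4384). Clock was high in ELS control replicate 3 of male VTA (11.1 RPKM) and low in ELS defeat replicate 3 of HIP (2666 normalised reads).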

How the results depend on the processing

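The count of 0 called clock genes held in all 41 stress contrasts under every alternative run, and the 29 fold changes that were recomputed kept their sign. The other fold changes given were not recomputed one by one. Between regions, leaving out each library in turn gave 9 to 10 called clock genes for VTA against NAc, 9 to 10 for VTA against PFC, 7 to 9 for NAc against PFC and 10 for HIP against PFC. Same-numbered libraries of different groups had correlations of deviations from -0.86 to 0.65. Their medians, 0.02 to 0.17 within sets, were above those of differently numbered libraries, -0.04 to 0.00, in every set compared. Single pairs had both signs, which cannot decide whether a number marks a shared batch or order of collection. That was not tested, and the numbers were no block in the main fit. With a replicate block 0 clock genes were called in 30 stress contrasts and no region call changed. Male NAc carries no numbers to block on.

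Counts of called pairs were less stable. Leaving out each library (or, between regions, each same-numbered pair), chosen after seeing the data, gave 13 to 20 in male VTA, 15 to 23 in HIP, 4 to 9 in male PFC, 1 to 3 in male NAc, 1 to 5 in female VTA, 5 to 13 in female NAc, 2 to 5 in female PFC and 0 to 2 between regions. Without the libraries that stood apart, 2 were called in female VTA, 3 in female PFC, 1 in male NAc (which lost no library, as adjustment runs over all sets) and 0 between regions. With quantile normalisation they were 3 in female VTA, 4 in female NAc, 2 in female PFC and 0 between regions. The cause was not tested. The pair of Nr1d1 and Arntl in male NAc was called in 13 of 32 alternatives. The reads behind a value set no close limit, as every clock gene had at least 253 reads, except in male VTA, where depth is unknown. Deviations of Dbp had r = -0.48 with whole reads in male PFC (adjusted p = 0.0598) and 0.57 in female PFC (adjusted p = 0.138). Neither was called, and the part of depth was not tested.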
